A study of Mus musculus with 15 samples.

Results

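RNA of mouse T helper 2 (Th2) cells with a conditional deletion of Asb2 was compared with that of control cells after 24 h of renewed stimulation through the T cell receptor and CD28. The comparison used the 4 stimulated conditional knockout (cKO) libraries and the 5 stimulated control libraries, 9 of the 15 libraries of the series, chosen by their genotype and stimulation labels. Control cells carried Asb2fl/fl alleles alone, and cKO cells were VEC-Cre;Asb2fl/fl, so both groups carried the floxed gene and differed by a Cre recombinase under the promoter of VE-cadherin, a gene of endothelial cells and of early blood-forming precursors. Naive CD4+ T cells from the spleens of female mice were activated on anti-CD3ε for 3 days in both groups, with interleukins 2 and 4, anti-CD28 and a blocking antibody to interferon gamma, and were then kept in both interleukins without antibodies. The cells of these 9 libraries were placed from day 5 on wells coated with 3 µg/ml of anti-CD3ε, with 2 µg/ml of anti-CD28 added to the medium. The other 6 libraries, 3 of each genotype, came from cells without renewed stimulation. They entered the model that estimates the spread and its filter on low counts, and their values are given beside those of the stimulated cells for some genes. The ages of the mice and the exons flanked by loxP sites are not given in the sources used here, and whether each library stands for its own animal is not stated. P-values therefore measure the spread between these libraries.

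ASB2 is the substrate-recognition subunit of a cullin 5 E3 ubiquitin ligase, in which a SOCS-box domain binds elongins B and C. The ligase marks proteins for degradation by the proteasome, and its best known substrates are the actin-crosslinking filamins. Th2 cells are helper T cells that express the transcription factor GATA3 and release interleukins 4, 5 and 13 when their T cell receptor is engaged. Loss of a ligase subunit acts first on proteins, which were not measured.

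Asb2 fell in the cKO cells and was the only gene called at a Benjamini-Hochberg adjusted p under 0.05 by edgeR's quasi-likelihood test, 1 of 15619 genes tested or 0.0064%. Among stimulated control libraries 1 to 5 it was at 34.1, 38.0, 32.3, 31.2 and 31.9 CPM, the read count scaled to a common library size. In stimulated cKO libraries 1 to 4 it was at 9.58, 9.59, 9.44 and 9.36 CPM. Every cKO library lay below every control library, and the 4 cKO values were closer together than the control values (9.49 ± 0.115, SD, n = 4, against 33.5 ± 2.72, n = 5). The cKO mean was 28.3% of the control mean, a log2 fold change of -1.82 ± 0.18 (standard error, 95% interval -2.19 to -1.44, edgeR adjusted p = 3.4e-04). An exact permutation test of the 9 libraries gave a two-sided p of 0.00794, the smallest that 4 against 5 libraries allow. These levels rest on 144 to 234 reads per cKO library and 552 to 750 per control library. Reads from exons outside the deleted part count towards the cKO level, and fewer cells with the intact gene cannot be told apart in bulk RNA from less RNA per cell. In the annotation used for gene order, Asb2 overlaps an antisense gene, Gm15523, on the other strand, and the strand setting of the counting is not given in the sources used here. Without renewed stimulation Asb2 was at 34.7, 25.6 and 49.7 CPM in control and 12.7, 22.7 and 22.1 CPM in cKO libraries, so that 52.2% of the control level was measured there. The genotype effect after stimulation minus that without it was -0.88 ± 0.27 on the log2 scale and was not called (edgeR adjusted p = 0.997, unadjusted p = 0.00517).

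The Asb2 value stood apart from the rest of the transcriptome. The median gene had a log2 fold change of 0.0044, and the median size of the change, in either direction, was 0.0824. Fitted changes of at least 1.5-fold were found in 608 genes (3.89%) and of at least 2-fold in 161 genes (1.03%), but 132 of the 161 had a mean under 1 CPM in the higher group. Of the 29 with at least 1 CPM, 3 had no overlap between the 4 cKO and the 5 control libraries. The 6 with at least 5 CPM were Asb2, Fam220a, Ncoa4-ps, Wdfy4, Gm26444 and Snord3b1, named here after their values were seen. Asb2 alone among those 6 had groups that did not overlap.

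The intervals of the fold changes show what size of difference these libraries could leave unseen. Over all genes tested, the 95% interval reached a median of 0.31 on the log2 scale to either side of the estimate, or 1.24-fold. It lay wholly within 1.5-fold either way for 10158 genes (65.0%) and within 2-fold for 13213 (84.6%). Precision followed the level of a gene. Of 2163 genes over 100 CPM, 95.4% had an interval within 1.5-fold, and of 6532 genes at 10 to 100 CPM, 94.7%. At 1 to 10 CPM the share was 43.9% of 4326 genes, and under 1 CPM it was 0.192% of 2598 genes, where the interval reached a median of 1.87-fold to either side. For genes under 1 CPM a 1.5-fold difference was therefore mostly not detectable at this depth. Intervals that excluded any change of 1.5-fold or less were found for 5 genes. Of these, 3 were under 1 CPM, 1 was at 1 to 10 CPM and 1, Asb2, was at 10 to 100 CPM.

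**Figure D1:**
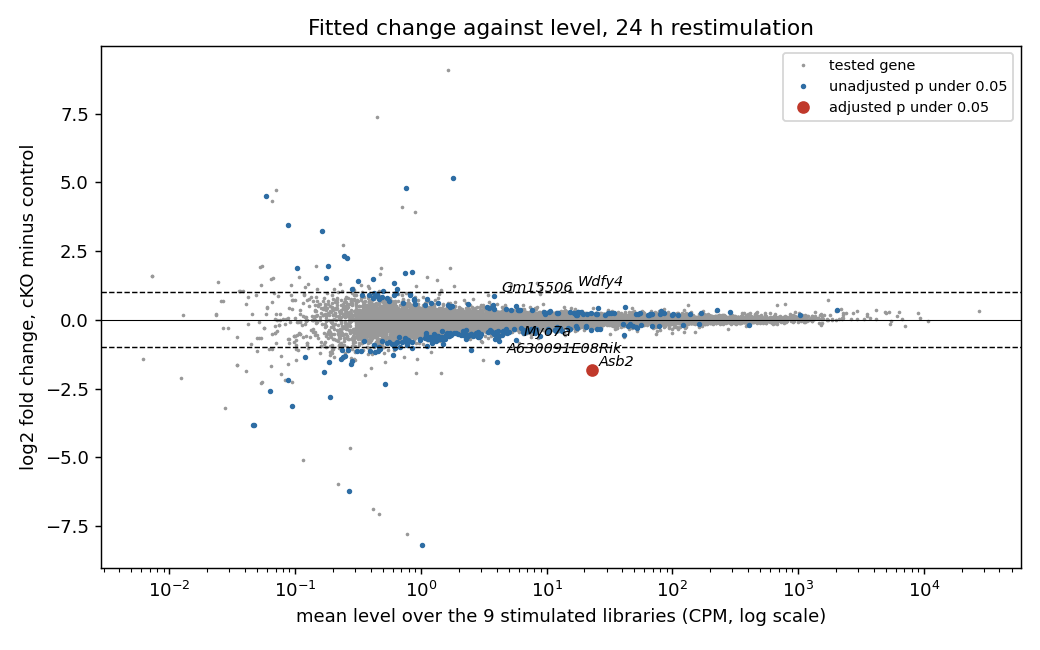
Log2 fold change of cKO against control after renewed stimulation (vertical axis) against mean CPM over the 9 stimulated libraries (horizontal log axis), 1 point for each of 15619 genes, with dashed lines at 2-fold. Blue points have an unadjusted p under 0.05, and Asb2, in red at -1.82, is the gene called at an adjusted p under 0.05; the points narrow towards 0 as the level rises.

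Outside Asb2, few genes separated the genotypes in a way that held across the libraries. An unadjusted p under 0.05 was reached by 283 genes, 1.81% of those tested and fewer than the 5% that evenly spread p-values would give. Of these, 181 were lower (1.16%) and 102 higher (0.653%) in cKO cells, so that 64.0% were lower. That share was 74.5% of 243 genes with limma on log2 of TPM plus 0.1. It was 46.1% of 282 genes without cKO library 1 and 48.2% of 523 genes without cKO library 4. The 2 groups did not overlap for 103 genes (0.659%), 55 lower (0.352%) and 48 higher (0.307%). When each of the 9 libraries was left out in turn, 44 of the 283 genes kept an unadjusted p under 0.05 in all 9 fits, 28 of them lower, 16 higher and 21 at 1 CPM or more. Each such fit reuses most of the libraries, so keeping that p is no separate support for a gene. The count at that p ranged from 209 genes without control library 4 to 525 without cKO library 2, and was 523 without cKO library 4. In the unstimulated libraries 90 of the 283 genes had a fold change of the same sign, so most did not keep their direction there. The share of same signs over all genes was not counted. Of the 90, 4 (Asb2, Myo7a, Gm15506 and Gm16867) also had an unadjusted p under 0.05 in the unstimulated libraries.

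The libraries held 17.1 to 24.2 M estimated counts. Among 8695 genes at 10 CPM or more, the median SD between libraries on the log2 scale was 0.138 in control and 0.154 in cKO cells, and the median size of the difference between group means was 0.0525. Library 3 of the cKO group stood apart. Mitochondrially encoded RNA took 9.43% of its counts against 4.94% to 6.24% in the other 8, and 468 genes deviated from the mean of their group mates by at least 1.5-fold, against 39 to 240 in the others. Without it, Asb2 remained the only gene called. For several values that rest on this library, the value without it is given below.

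Beside Asb2, the smallest p-values belonged to 3 genes that the annotation places close together on 1 chromosome, which is not the chromosome of Asb2; they were picked out after their values were seen. Myo7a, which encodes the unconventional myosin VIIA, an actin-based motor, was at 7.87, 6.12, 7.30, 6.69 and 6.59 CPM in control libraries 1 to 5. In cKO libraries 1 to 4 it was at 3.26, 4.43, 4.13 and 4.79 CPM. All 4 cKO values lay below all 5 control values, and the cKO mean was 60.0% of the control mean. The log2 fold change of -0.74 ± 0.14 (95% interval -1.03 to -0.44) was not called by edgeR (adjusted p = 0.306) and was called by DESeq2 (adjusted p = 0.00419). In unstimulated cells Myo7a was at 5.83, 5.94 and 5.45 CPM in control and 4.33, 3.54 and 3.81 CPM in cKO libraries, again without overlap (log2 fold change -0.56).

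A630091E08Rik, annotated as a long intergenic non-coding RNA, had control values of 4.73, 5.11, 5.80, 4.91 and 5.26 CPM and cKO values of 2.48, 3.24, 2.75 and 3.71 CPM. The groups did not overlap, with a cKO mean 59.0% of the control mean and a log2 fold change of -0.76 ± 0.14 (edgeR adjusted p = 0.306, DESeq2 adjusted p = 0.00453). Gm15506, annotated as a processed transcript, went the other way. It was at 2.23, 2.38, 3.30, 3.23 and 2.83 CPM in control and 4.04, 6.85, 3.80 and 5.75 CPM in cKO libraries, so that every cKO value was above every control value. The cKO mean was 183% of the control mean, a log2 fold change of 0.88 ± 0.19 (95% interval 0.47 to 1.28), called by neither edgeR (adjusted p = 0.959) nor DESeq2 (adjusted p = 0.0532). With limma on log2 of TPM plus 1, a scale that understates changes of low genes, the values were -0.34 for Myo7a and 0.41 for Gm15506. Each of these 3 genes reached the exact permutation p of 0.00794, the smallest possible, before any adjustment over the 15619 genes. That p restates that their groups did not overlap, as held for 103 genes (0.659%), and is no separate support. Without stimulation Gm15506 was at 4.28, 5.12 and 4.76 CPM in control and 6.52, 8.23 and 6.08 CPM in cKO cells, and A630091E08Rik at 7.28, 7.49 and 8.09 against 5.85, 6.39 and 6.08 CPM.

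**Figure D2:**
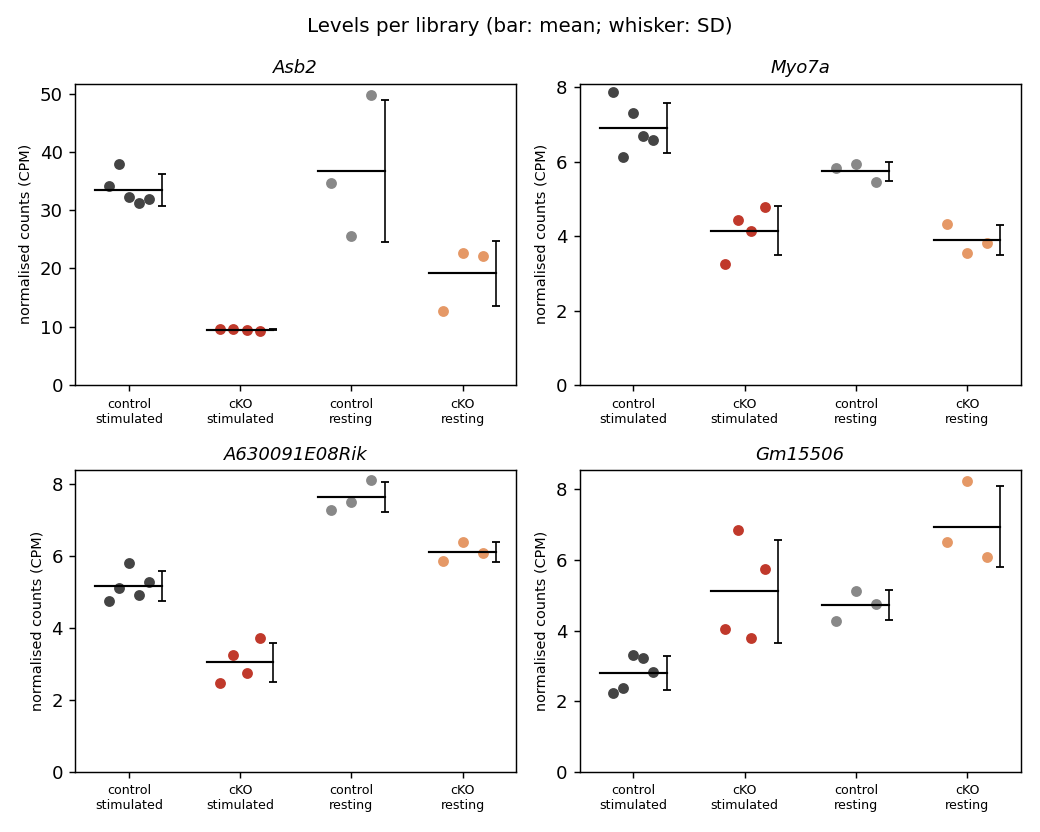
Normalised counts (CPM, linear axes from 0) of Asb2, Myo7a, A630091E08Rik and Gm15506, with 1 point per library in stimulated and resting (unstimulated) control and cKO cells; lines are group means and whiskers SD. After stimulation the 4 cKO points lie below all 5 control points for Asb2, Myo7a and A630091E08Rik and above them for Gm15506.

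Along that chromosome Myo7a, A630091E08Rik and Gm15506 fall among 7 tested genes that follow one another, with Capn5, Acer3, Lrrc32 and Emsy between or beside them. None of the 3 overlaps another annotated gene. Lrrc32, which encodes GARP, the surface anchor of latent transforming growth factor beta, was fitted at -0.61 ± 0.24 (unadjusted p = 0.0197), with groups that overlapped. Capn5, a calpain protease gene, was fitted at -0.38 ± 0.20, the ceramidase gene Acer3 at 0.08 ± 0.12 and Emsy at -0.15 ± 0.10. Of the next 20 tested genes on one side, 3 were lower at an unadjusted p under 0.05 (1.16% of all genes), namely Map6, Arrb1 and Xrra1. Of the 20 on the other side, 1 was higher (0.653% of all genes), Kctd21 at 0.51 ± 0.20. Of the 40 tested genes that flank Asb2, 1 reached that p, which is near the 1.81% of all genes, the microRNA-processing enzyme gene Dicer1 at -0.16 ± 0.07. Neighbours along a chromosome were looked at because of these values, and whether Asb2 loss or the Cre background moves with them cannot be told apart in this design.

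**Figure D3:**
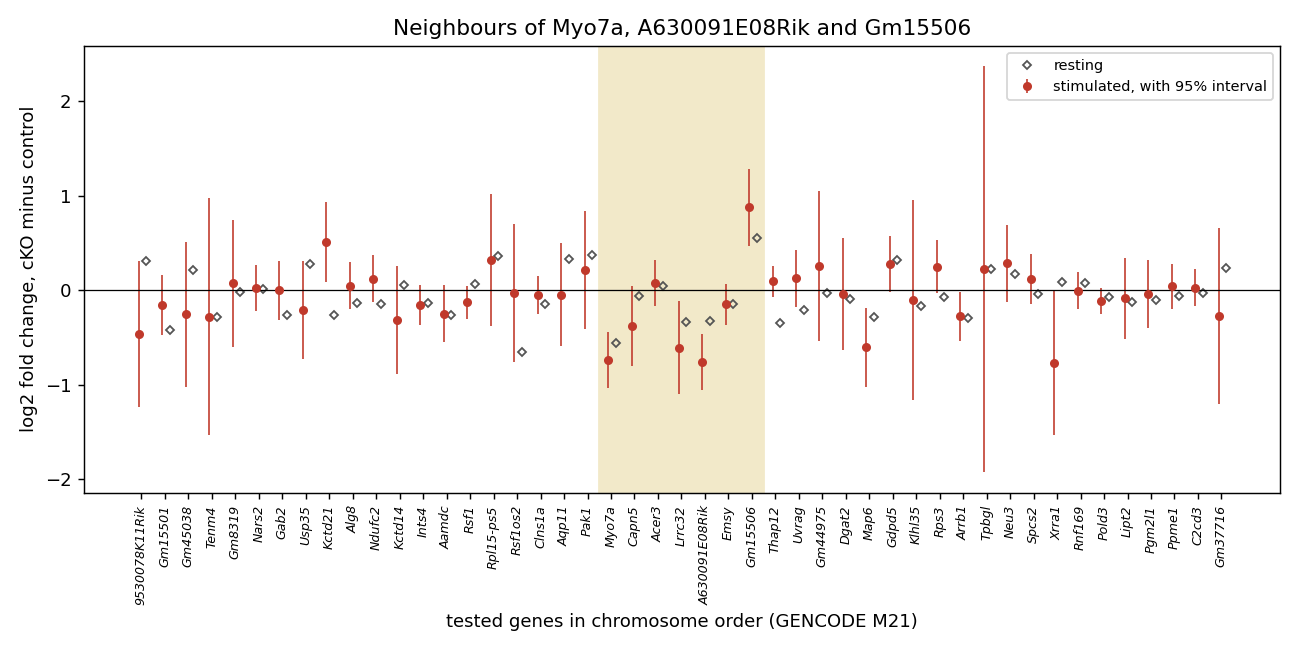
Log2 fold change of cKO against control for the 7 tested genes from Myo7a to Gm15506 (shaded) and the 20 on either side, in their order along the chromosome. Red points with 95% intervals are stimulated cells and open symbols resting cells. After stimulation, among the shaded genes, the intervals of Myo7a, Lrrc32 and A630091E08Rik lie below 0 and that of Gm15506 above it. Among the flanking genes, those of Map6, Arrb1 and Xrra1 lie below 0 and that of Kctd21 above it.

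Beyond these, the named genes listed next, at 1 CPM or more and with groups that did not overlap, were fitted from -0.71 (Ndor1) to 0.51 (Kctd21). None of them was called. The rule for names found 31 higher and 16 lower candidates, of which the 10 of each direction with the smallest p follow. Over all genes tested, 48 (0.307%) were higher and 55 (0.352%) lower without overlap. No lean to higher genes is therefore read from the candidates. Nek8, which encodes a kinase of the primary cilium, was at 12.8, 14.3, 13.9, 13.7 and 15.1 CPM in control and 16.1, 16.9, 19.1 and 16.9 CPM in cKO libraries. This made a log2 fold change of 0.30 ± 0.09 that had an unadjusted p under 0.05 whichever library was left out. The same held for the zinc finger gene Zfp748 (0.23 ± 0.08) and for Map6, a microtubule-stabilising protein gene. Map6 was at 10.8, 7.89, 10.6, 12.8 and 10.3 CPM in control and 7.29, 6.77, 7.60 and 5.91 CPM in cKO libraries, a log2 fold change of -0.60 ± 0.20, with the lowest control library close to the highest cKO library.

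The other higher genes were fitted between 0.20 and 0.51 and lost an unadjusted p under 0.05 when 1 library was left out. They were Pdcd10, Kctd21, Syap1, the glutathione transferase gene Mgst2, the lipase gene Abhd12, the gamma-secretase subunit gene Psenen, the palmitoyltransferase gene Zdhhc16 and Wdyhv1. For Pdcd10 and Syap1 cKO library 3 was well above its group mates, at 122 CPM against 79.3 to 84.9 and at 42.2 CPM against 30.2 to 32.2. Without that library their log2 fold changes went from 0.31 to 0.14 and from 0.25 to 0.12. The other lower genes were the kinase gene Nek3 (-0.46 ± 0.18), the splicing-related gene Sugp2 (-0.22 ± 0.09), the cyclic AMP phosphodiesterase gene Pde4a (-0.32 ± 0.13), the mitochondrial deacetylase gene Sirt3 (-0.30 ± 0.13) and the galactosyltransferase gene B4galt2 (-0.62 ± 0.29). These 5 and Ndor1 also lost an unadjusted p under 0.05 when 1 library was left out. For Sugp2 and Pde4a it was cKO library 3, without which they were fitted at -0.14 and -0.25, and so it was for Psenen and Zdhhc16, at 0.17 and 0.15 without it. Tgfbr2, a receptor subunit for transforming growth factor beta, was at 102 ± 5.08 CPM in control and 92.6 ± 5.51 CPM in cKO cells (-0.14 ± 0.07, unadjusted p = 0.0564). Ndor1 (-0.71 ± 0.28) is uncertain, because 3 gene identifiers share its name and the most abundant of them, ENSMUSG00000006471, was at 20.8 ± 2.32 CPM in control and 20.7 ± 3.33 CPM in cKO cells.

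Of the transcripts for the other parts of the ligase and for its reported partners, none passed the test. Elob and Eloc, for elongins B and C, were fitted at 0.09 ± 0.13 and 0.15 ± 0.10. Cul5, the scaffold, was at -0.04 ± 0.10 and Rnf7, the RING subunit, at 0.11 ± 0.10. Among substrates, Flna (filamin A) was at 561, 503, 597, 540 and 439 CPM in control and 594, 531, 429 and 536 CPM in cKO libraries. These ranges overlapped, with a log2 fold change of -0.01 ± 0.12 and a 95% interval from -0.27 to 0.24. Flnc was under 1.1 CPM in each library. Jak2 was at 1303 ± 93.2 CPM in control and 1428 ± 139 CPM in cKO cells (0.13 ± 0.09), and cKO library 4 held the highest value, 1637 CPM. Jak3, Kmt2a, Skp2, Tcf3 and Notch1 had fitted changes from -0.13 to 0.05. Of the 14 tested genes in this list, Asb2 alone had an unadjusted p under 0.05, and 12 had an interval within 1.5-fold. Of the 7 other Asb genes tested, none had such a p, and their fold changes ran from -0.06 (Asb13) to 0.20 (Asb16).

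Of the genes that define Th2 cells, none passed the test in either direction. Gata3 was at 663, 739, 715, 734 and 756 CPM in control and 827, 761, 640 and 661 CPM in cKO libraries, a log2 fold change of 0.00 ± 0.10 with a 95% interval from -0.20 to 0.20. Il5, the eosinophil growth factor gene, was at 980, 1123, 1049, 1187 and 836 CPM in control and 1021, 1056, 1512 and 766 CPM in cKO libraries (0.07 ± 0.17, interval -0.29 to 0.43). The cKO libraries held both the highest and the lowest of the 9 values, and without cKO library 3 the fitted change was -0.13. Il13 was at 1726 ± 176 CPM in control and 1718 ± 296 CPM in cKO cells (-0.01 ± 0.28, interval -0.62 to 0.60). Il4 was at 115 ± 21.3 and 133 ± 40.2 CPM (0.21 ± 0.26, interval -0.35 to 0.77). Its cKO libraries 1 to 4 held 142, 125, 181 and 84.2 CPM, so cKO library 3 was the highest of them. Across all settings of the fit described below, the fitted change of Il4 ranged from 0.02 to 0.38. The interval of Il13 did not exclude a change of 1.5-fold in either direction, and that of Il4 did not exclude a rise of that size. Both intervals used a spread estimated over all 15 libraries, the unstimulated ones included. Without stimulation, Il13 was at 26.8, 12.1 and 40.6 CPM in control and 11.2, 27.5 and 17.4 CPM in cKO libraries. The Il13 interval may thus be wider than the 9 stimulated libraries alone would give, and an interval from those alone is not given here. Of 18 tested genes of the Th2 list, which also holds the signal transducer Stat6 (0.06 ± 0.07), 12 were fitted higher and 6 lower, 13 had an interval within 1.5-fold, and the median of 0.03 stood beside 0.0044 for all genes.

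Across 24 lists of pathways and T cell programs, with 367 tested genes, 1 was called with either edgeR or DESeq2 (Asb2) and 4 had an unadjusted p under 0.05, which is 1.09% against 1.81% of all genes. Those 4 were Asb2, Lrrc32, the nuclear factor gene Tox2 (-0.50 ± 0.22) and mt-Co3. The interval lay within 1.5-fold for 274 of the 367 (74.7%) and within 2-fold for 337 (91.8%). Groups did not overlap for 2 of them, Asb2 and the cytokine-signalling inhibitor gene Socs2, 0.545% against 0.659% of all genes. Socs2 was at 154 to 168 CPM in control and 170 to 179 CPM in cKO libraries (0.13 ± 0.14).

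The list medians were small. Genes induced by T cell receptor activation had a median of 0.02 (20 fitted higher, 11 lower), cytokines and chemokines 0.08 (21 and 7), actin and adhesion genes 0.02 (20 and 10), Th1 genes -0.04 (7 and 8), cell cycle genes 0.02 (18 and 8) and interferon response genes -0.01 (4 and 7). With log2 of TPM plus 0.1 in place of counts, all genes together had a median of -0.07 and the split turned for T cell receptor activation (10 higher, 21 lower), actin and adhesion (4 and 26), cell cycle (4 and 22) and Th2 genes (4 and 14), so no direction is read from these counts. In these 6 lists no gene reached an unadjusted p under 0.05. Among the members with the smallest p were the costimulatory ligand gene Cd40lg at 0.20 ± 0.12 and the RANK ligand gene Tnfsf11 at 0.24 ± 0.15, and the homing receptor gene Ccr7, from the quiescence and homing list, at 0.31 ± 0.16. Tnfsf11 was at 136, 130 and 132 CPM in cKO libraries 1 to 3 and at 82.4 CPM in cKO library 4, below all 5 control libraries, which held 88.8 to 117 CPM.

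Mitochondrially encoded genes had the largest list median, 0.30, with 13 of 13 fitted higher, and this rested on cKO library 3. Their mean log2 deviation from control was 0.97 in that library and 0.01, -0.09 and 0.05 in cKO libraries 1, 2 and 4, while control libraries ranged from -0.12 to 0.09. Without library 3 the list median was -0.02. For mt-Co3, a subunit of cytochrome oxidase, control libraries held 1688 to 1957 CPM and cKO libraries 1920, 1865, 3344 and 2146 CPM. Its log2 fold change of 0.35 ± 0.14 (unadjusted p = 0.0245) became 0.11 without library 3. The unfolded protein response list behaved alike, with a median of 0.08 (13 fitted higher, 2 lower), a mean deviation of 0.28 in library 3 and a median of 0.00 without it, and on the TPM scale it had 5 higher and 10 lower.

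**Figure D4:**
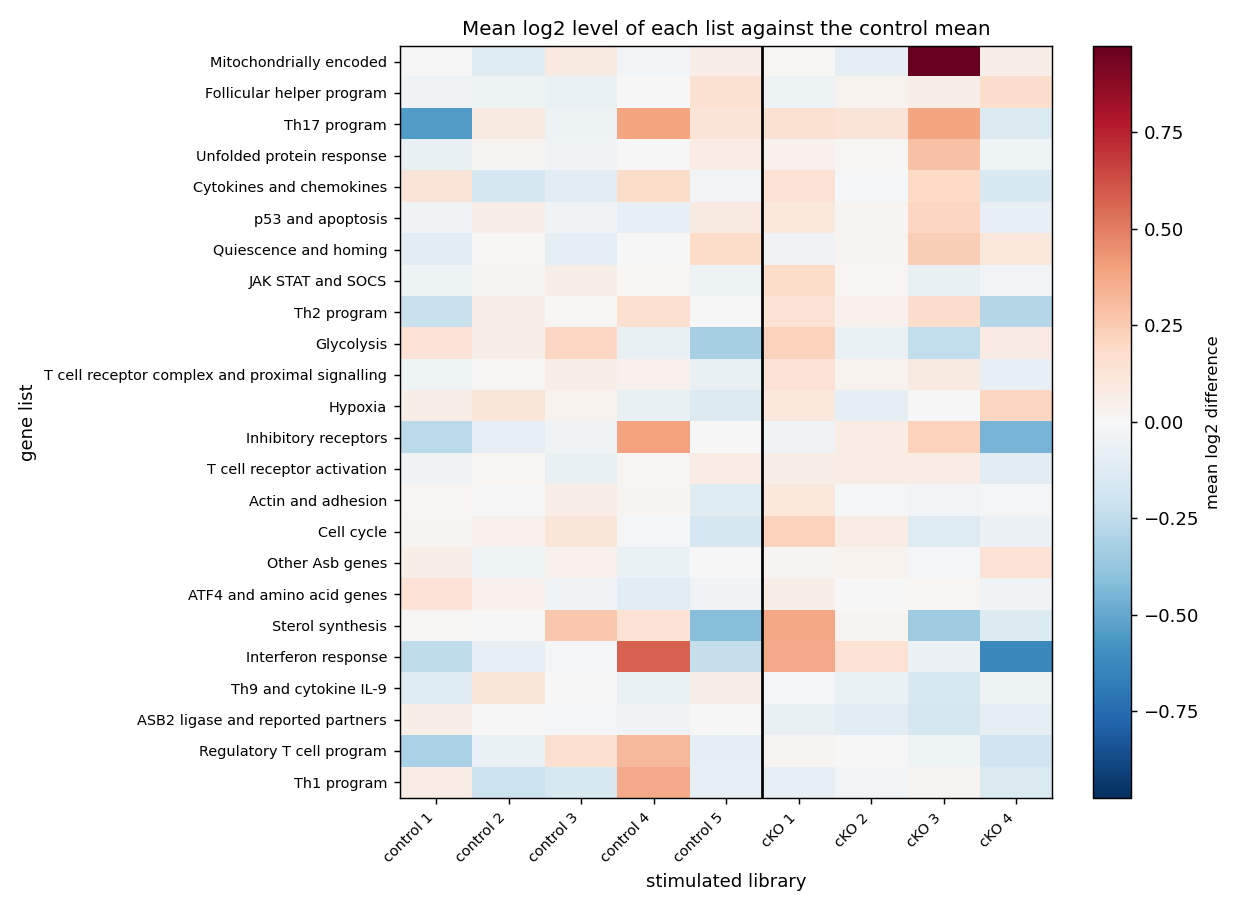
Mean log2 deviation from the control mean for each of the 24 lists of pathways and T cell programs (vertical axis; marker lists are not plotted) in each of the 9 stimulated libraries (horizontal axis), as a colour scale from blue (lower) to red (higher). The strongest cell among these lists is that of mitochondrially encoded genes in cKO library 3, at 0.97; the list with the ligase genes, which is below 0 in all 4 cKO libraries, includes Asb2 itself.

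Markers of other cell types were examined in 13 lists. All 10 CD4 T cell markers were detected, and their sum ran from 2811 to 3337 CPM in control and 2951 to 3767 CPM in cKO libraries. Of 9 cytotoxic markers, 8 were tested and all 8 were fitted lower in cKO cells (median -0.25, none at an unadjusted p under 0.05), but without control library 4 the split was 5 higher and 3 lower with a median of 0.01. Their sum of 1405 to 3303 CPM in control and 1317 to 2365 CPM in cKO libraries overlapped, with the highest values in control library 4 and cKO library 3. Gzmb, the granzyme B gene, made up most of that sum, at 1626, 1165, 1446, 2568 and 1239 CPM in control and 1305, 1302, 1963 and 1154 CPM in cKO libraries, and Cd8a was at 3.04 to 16.5 and 1.60 to 7.86 CPM. Marker sums of natural killer cells (9.05 to 26.9 and 8.17 to 18.2 CPM) and B cells (5.00 to 11.9 and 4.43 to 7.37 CPM) also overlapped. The sum of 6 mast cell and basophil markers did not overlap, at 0.173 to 0.550 CPM in control and 0.583 to 1.35 CPM in cKO libraries, but its members did not agree. The protease gene Cpa3 was at 0.0558 to 0.106 and 0.194 to 0.779 CPM (log2 fold change 2.32 ± 0.88, unadjusted p = 0.00823). Kit, not tested, was at 0.0532 to 0.15 and 0.164 to 0.43 CPM. Mcpt8 overlapped, at 0 to 0.25 and 0 to 0.369 CPM. Fcer1a and Ms4a2 were at 0 in the cKO libraries and at most 0.0506 CPM in control. Prss34 was at 0 in control and at most 0.0538 CPM in cKO libraries. Col1a1, a collagen gene of the fibroblast list, was lower without overlap, at 0.851 to 1.1 and 0.459 to 0.632 CPM (-0.81 ± 0.27, unadjusted p = 0.00701). Cpa3 and Col1a1 kept an unadjusted edgeR p under 0.05 whichever library was left out, at most 0.0496 for Cpa3 and 0.0229 for Col1a1. These fits reuse most of the libraries and are no separate support. Neither gene was called (edgeR adjusted p = 1), and groups did not overlap for 0.659% of all genes tested. Of 7 endothelial genes, Cdh5, Tek, Tie1 and Emcn were at 0 in all 9 libraries, Kdr and Vwf were at 0.328 CPM or less, and Pecam1, which T cells also express, was at 44.3 to 77.1 CPM in control and 44.7 to 58.2 CPM in cKO libraries. Of 8 macrophage and monocyte genes, Lyz2, C1qa and C1qb were at 0, Cd68 was at 2.13 to 4.30 and 2.56 to 4.13 CPM, and Itgam was at 0.613 CPM or less (unadjusted p = 0.0122, lower). Of the 3 tested, the other 2, Cd68 and Adgre1 (0.638 to 1.45 and 0.269 to 2.09 CPM), were fitted higher, and the list median was 0.04. The neutrophil genes S100a8 and S100a9 were at 0. The part of such cells in the genotype values was not tested.

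Some genes were high in some libraries and near 0 in others of the same genotype. A search made after the values were seen, for genes with a gap of at least 8-fold between a high and a low set of libraries, found 10. Wdfy4, which encodes a BEACH-domain protein known from antigen cross-presentation by dendritic cells, was at 34.1 and 15.3 CPM in control libraries 1 and 2 and at 0.850, 0.613 and 0.289 CPM in control libraries 3 to 5. All 4 cKO libraries were on the high side, at 16.3, 16.3, 21.1 and 32.9 CPM. In unstimulated cells, control library 1 held 27.7 CPM, control libraries 2 and 3 held 1.96 and 2.25 CPM, and the 3 cKO libraries 59.0, 30.8 and 60.3 CPM.

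Ncoa4-ps, a processed pseudogene of a ferritin receptor gene, split the same libraries. It was at 14.5 and 9.01 CPM in control libraries 1 and 2 and at 0.231 to 0.550 CPM in control libraries 3 to 5. The stimulated cKO libraries held 7.83 to 17.1 CPM. Without stimulation Ncoa4-ps was at 7.76, 0.465 and 0.389 CPM in control and 14.6, 6.92 and 17.3 CPM in cKO libraries. For Wdfy4 and Ncoa4-ps every cKO library, stimulated or not, was on the high side. The annotation places Ncoa4-ps on the chromosome of Asb2, outside the 20 tested genes on either side of it, and Wdfy4 on another chromosome. The spread inside the control group left both genes uncalled, with log2 fold changes of 1.07 ± 1.09 for Wdfy4 and 1.35 ± 1.04 for Ncoa4-ps. Gm16867 was at 8.04 CPM in cKO library 2 and 7.58 CPM in cKO library 4 and at 0.25 CPM or less in the other 7 stimulated libraries, so its fitted change of 5.15 ± 1.97 (unadjusted p = 0.00582, edgeR adjusted p = 1) rested on 2 libraries. Without stimulation it was at 4.28 and 5.31 CPM in cKO libraries 2 and 3, 0.0509 CPM in cKO library 1 and at most 0.161 CPM in control, so its high values were found in cKO libraries in both conditions. Rpl15-ps6 was at 25.9 and 31.1 CPM in control libraries 4 and 5, at 31.4 and 32.8 CPM in cKO libraries 2 and 3, and at 0.700 CPM or less in the other 5. Pseudogenes and members of repeated families share reads with near-identical copies, so the levels of Ncoa4-ps, Rpl15-ps6 and the small RNA and Gm genes of this search are uncertain. Wdfy4, Ncoa4-ps and Rpl15-ps6 differed among libraries of the same genotype and Gm16867 among cKO libraries, and the source of these differences was not tested.

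**Figure D5:**
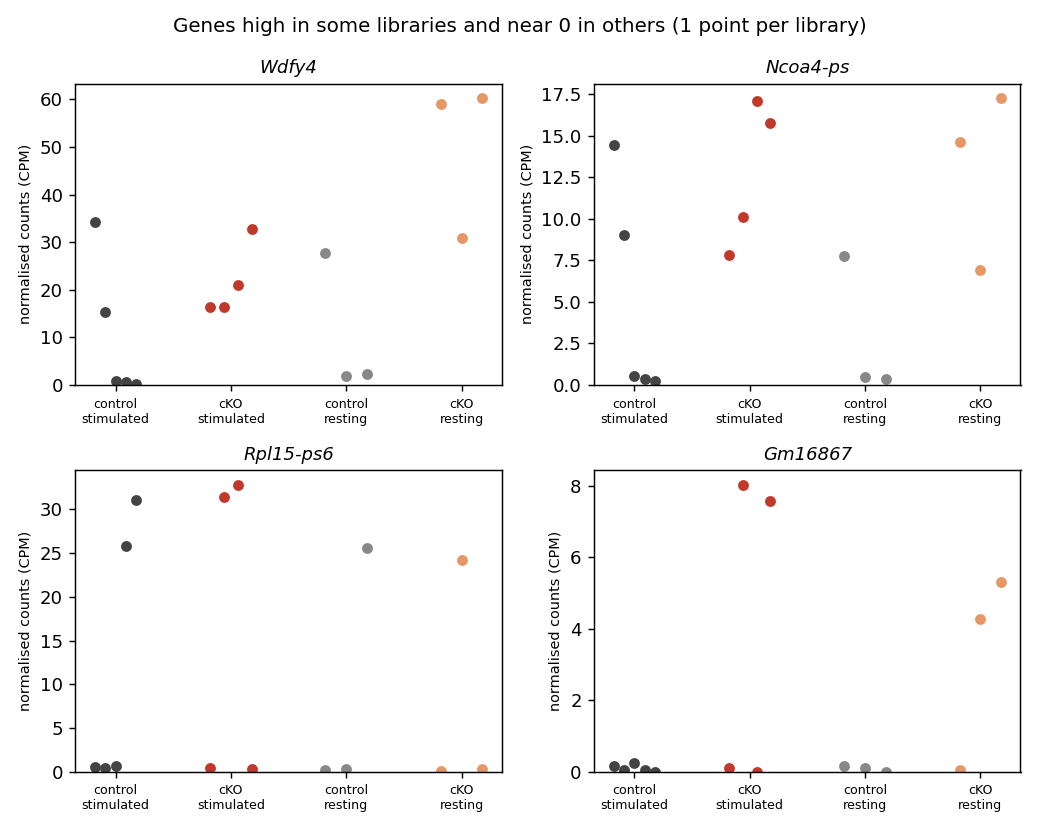
Normalised counts (CPM, linear axes from 0) of Wdfy4, Ncoa4-ps, Rpl15-ps6 and Gm16867, with 1 point per library in stimulated and resting control and cKO cells, in the order of the replicate numbers. Wdfy4 and Ncoa4-ps are high in control libraries 1 and 2 and in all 4 cKO libraries after stimulation, and low in control libraries 3 to 5.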

How the data were processed

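RNA from stimulated Th2 cells (5 control and 4 cKO libraries) and from unstimulated cells (3 of each) had been sequenced after a stranded total RNA preparation with ribosomal RNA depletion, per the labels' protocols. The authors deposited estimated counts, unscaled between libraries, and TPM values, scaled to gene length and depth within each library, for 56748 genes. The GRCm39 genome and the tools Salmon 1.10.1, STAR 2.7.9a and cutadapt 3.4 are listed by the submitters' processing notes. The role of each tool, the annotation release and the strand setting are not given in the sources used here.

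Estimated counts were rounded and analysed in R 4.3.3 with edgeR 4.0.16: filterByExpr by group (15619 genes kept), trimmed mean of M-values scaling, and a robust quasi-likelihood fit of all 15 libraries with 1 mean per group, tested two-sided with Benjamini-Hochberg adjustment and a threshold of 0.05. CPM were computed on the scaled library sizes. Intervals at 95% used Wald standard errors of that fit. Single genes also had exact permutation tests. Depth was 17.1 to 24.2 M counts per library. The labels name no molecular identifiers, so copies of 1 molecule may be counted more than once.

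Named genes were Asb2, Flna, Gata3, Il4, Il5 and Il13; the 10 higher and 10 lower with the smallest p among named, non-overlapping genes with a mean of at least 1 CPM in the higher group (without clone names, pseudogenes, variable segments, small RNA or mitochondrial genes); from each list the 2 members with the smallest p; and the ligase and Asb lists. Some genes taken by this rule are not reported here. Others were chosen after their values were seen. The comparison, lists and tests were chosen with earlier results of these data known.

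Gene order came from the GENCODE M21 annotation of another build (GRCm38), with a position for 15284 of the tested genes, so no coordinates are given. Alternatives used DESeq2 1.42.0, relative log expression factors, no filter or 1 CPM in 3 libraries, the 9 stimulated libraries alone, a replicate block, no robust dispersion, limma 3.58.1 (voom with quality weights, or log2 of TPM plus 0.1 or 1), removal of small RNA, mitochondrial and histone genes, and each library left out. A surrogate variable (sva 3.50.0) was added after seeing the data. The fit was tested on simulated counts. Deviations of same-numbered control and cKO libraries correlated at 0.352, 0.078, -0.124 and -0.143. Those of differently numbered libraries ran from -0.697 to 0.564, so this check could not decide whether the numbers pair libraries. No pairing was assumed in the main fit.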

Additional observations from a re-analysis of the deposited data

Results flagged for a closer look

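Of 196 sets of values (a named gene in 1 stimulated group), 14 had a highest or lowest library separated from the rest by more than Dixon's 95% critical value, where chance gives about 1 in 20. In cKO library 3, Pdcd10 was at 121.5 CPM against 79.3 to 84.9 CPM in the other 3, Syap1 at 42.2 against 30.2 to 32.2 CPM, the unfolded protein response gene Manf at 252.2 against 151.3 to 162.3 CPM, and the glycolytic gene Pfkp at 560.4 against 644.8 to 660.4 CPM. In cKO library 4, Jak2 was at 1637 against 1348 to 1370 CPM, Tnfsf11 at 82.43 against 129.7 to 135.8 CPM and Capn5 at 3.871 against 1.896 to 2.132 CPM. In cKO library 2, Lrrc32 was at 1.353 against 1.989 to 2.097 CPM, and in cKO library 1 the serine synthesis gene Phgdh was at 354.7 against 242.7 to 258.3 CPM.

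Among control libraries, library 4 had Cd244a, a receptor of cytotoxic and memory T cells, at 15.39 CPM against 4.71 to 6.93 CPM in the other 4, and it also had the highest sum of cytotoxic markers. Library 3 had the activation factor gene Batf at 205.0 against 161.4 to 174.0 CPM, and library 5 had Manf at 191.3 against 146.8 to 156.6 CPM. Library 1 had the CD3 zeta gene Cd247 at 201.3 against 224.5 to 229.8 CPM and the amino acid transporter gene Slc3a2 at 412.9 against 376.1 to 384.4 CPM. Of the 14, 4 came from cKO library 3, whose mitochondrial share was the highest of the 9.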

How the results depend on the processing

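Asb2 was called in all 22 alternatives, with log2 fold changes from -1.86 to -1.65 and a highest adjusted p of 0.0233, which came with the replicate block (-1.83). The number of genes called was 1 in 21 of the 22, from 1 to 1 leaving out each library, and 5 with DESeq2: Asb2, Myo7a, A630091E08Rik, Pgk1-rs7 and Gm15725. Pgk1-rs7 had counts in 1 of the 9 libraries (cKO library 3, 14.7 CPM) and Gm15725 in 1 (control library 3, 4.15 CPM). Leaving out each library gave -1.84 to -1.76 for Asb2, -0.90 to -0.82 for its stimulation-dependent part, and shares of intervals within 1.5-fold of 60.5% to 64.6% and within 2-fold of 80.4% to 83.3%. Without a filter 28064 genes were tested and these shares were 36.1% and 47.1%. Genes at an unadjusted p under 0.05 numbered 564 without a filter and 272 with the replicate block, which changed no call.

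Of 1947 fits of single named genes under an alternative, 55 changed sign, each for a gene not called under any setting; 1890 did not, and Myo7a and A630091E08Rik became called with DESeq2. On log2 of TPM plus 0.1, where the median of all genes was -0.067, the fold change was -0.072 for Gata3, -0.034 for Il5, -0.027 for Eloc, -0.064 for Asb6, -0.0083 for Rhoa, -0.0017 for Stat6, -0.024 for Il9r, -0.020 for Tyk2, -0.0052 for Tcf3 and -0.035 for Acer3. With TPM plus 1 it was -0.072 for Gata3, -0.034 for Il5, -0.026 for Eloc, -0.058 for Asb6, -0.0083 for Rhoa, -0.0013 for Stat6, -0.017 for Il9r, -0.018 for Tyk2, -0.0038 for Tcf3 and -0.027 for Acer3. With limma-voom it was 0.017 for Flna, -0.051 for Il5 and -0.00080 for Tcf3. With the replicate block it was -0.031 for Il5, and with the 9 stimulated libraries alone -0.00040 for Gata3. Removing small RNA, mitochondrial and histone genes gave -0.0022 for Gata3. A surrogate variable gave 0.011 for Flna, -0.0030 for Gata3 and -0.0054 for Il5, and with the 9 stimulated libraries alone -0.0025 for Gata3. Leaving out 1 library gave -0.070 to 0.050 for Gata3, -0.030 to 0.19 for Asb6, -0.053 to 0.16 for Phgdh, -0.085 to 0.020 for Cul5, -0.028 to 0.14 for Tcf3, -0.10 to 1.25 for Rpl15-ps6, -0.082 to 0.063 for Flna, -0.13 to 0.21 for Il5, -0.11 to 0.090 for Il13, -0.028 to 0.26 for Manf, -0.43 to 0.024 for Mvk, -0.20 to 0.024 for Lss, -0.0074 to 0.19 for Elob, -0.16 to 0.030 for Jak3, -0.019 to 0.14 for Il9r and -0.00017 to 0.48 for Flnc. Of 527 list medians under an alternative, 25 moved by more than the spread between control libraries. Over all alternatives Myo7a ranged from -0.80 to -0.34, A630091E08Rik from -0.86 to -0.67 and Gm15506 from 0.41 to 1.12. Why values moved was not tested.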
